A study of Mus musculus with 24 samples.

Results

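The effect of diabetes on transcript counts was examined in microvascular endothelial cells of the mouse heart (carMECs). Of the 24 tissue regions in the series, 6 were regions of the heart, and all 6 were used: the 3 titled as non-diabetic cardiac MECs, the diabetic cardiac MEC region 1, and the 2 regions titled only as diabetic mouse heart, 2 and 3. These last 2 were taken as carMECs because the study describes no other kind of heart region, and results are also given with diabetic region 1 as the sole diabetic region. The remaining 18 regions are MECs of the retina (retMECs) and kidney (renMECs) and neuronal cells of the retina, with 3 regions per condition in each, and served for comparison only.

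All mice were male C57BL/6J. At 8 weeks of age the diabetic group received streptozotocin at 50 mg/kg into the peritoneum over 5 days, the non-diabetic littermates received citrate buffer alone, and tissue was taken 2 months later. There were 3 mice in a group, and no label says which mouse a region came from. The p-values therefore concern differences between regions rather than mice, and some of the spread between regions may be technical. Formalin-fixed, paraffin-embedded sections were stained for CD31, a surface protein of endothelial cells, and hybridised with the GeoMx Mouse Whole Transcriptome Atlas, in which each probe carries a barcode that ultraviolet light releases from a chosen region. Each value is therefore a count of released barcodes for 1 probe in 1 region, and a smaller number of cells cannot be told apart from less RNA per cell.

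Cardiac MECs line the capillaries that run between cardiac muscle fibres. They pass oxygen, glucose and fatty acids to the muscle, form a continuous layer, and signal to neighbouring muscle cells and fibroblasts. Streptozotocin enters the beta cells of the pancreas through a glucose transporter and destroys them, which leaves the animal short of insulin and with raised blood glucose. A CD31+ area of a section can also release barcodes from cells that lie against the vessel, so such a region is not a purified cell population.

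The files give probes by identifier, and the tables used here pair no identifier with a gene. Probes are therefore described by identifier, level and behaviour, their genes and functions were not analysed here, and the endothelial label could not be checked against marker genes. Only the 2 higher and the 2 lower probes with the smallest p-values are named.

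Diabetic carMEC regions held fewer counts than non-diabetic regions. Total counts were 391604, 211272 and 521366 in non-diabetic regions 1 to 3, and 153319, 119636 and 115269 in diabetic regions 1 to 3. The groups did not overlap, and the diabetic mean was 0.345 times the non-diabetic mean (two-sided exact permutation test, p = 0.1, the smallest value that 3 against 3 regions allow). Raw reads were fewer as well, at 5604224, 2519159 and 13350200 in non-diabetic and 1818675, 1530029 and 1636246 in diabetic regions. The part of sequencing in the lower counts was not tested. The 75th percentile of the counts, which sets the scale in what follows, was 19, 10 and 23 against 8, 6 and 6. Nearly every probe was counted at least once, with 20147 to 20185 probes in non-diabetic and 19663 to 19988 in diabetic regions. When all regions were thinned to the lowest total, the ranges became 19687 to 19826 and 19583 to 19702, and overlapped. Lower totals in diabetes were not particular to the heart. The diabetic and non-diabetic medians were 333862 and 568886 in renMECs, 44958 and 85657 in retMECs, and 163911 and 372615 in neuronal cells. The ranges of these totals overlapped in renMECs and retMECs.

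Most probes sat in a narrow band of low counts. The median count was 15, 7 and 18 in non-diabetic regions and 5, 4 and 4 in diabetic regions. A limit for this bulk was set, after the counts were seen, at the 99.9th percentile of a Poisson distribution with the region's median. It fell at 16 to 32 counts in non-diabetic and 11 to 13 counts in diabetic regions. Probes above it numbered 1371, 1340 and 1876 in non-diabetic and 1082, 907 and 886 in diabetic regions, a difference that moves with total count. In all 6 regions 526 probes exceeded the limit, and they held 21.7% to 26.5% of the counts in non-diabetic and 24.9% to 27.0% in diabetic regions. Most counts of the heart therefore lay outside these 526 probes in both groups, and the share of the 526 overlapped between groups. The share of all probes above the limit in each region was not computed.

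**Figure D1:**
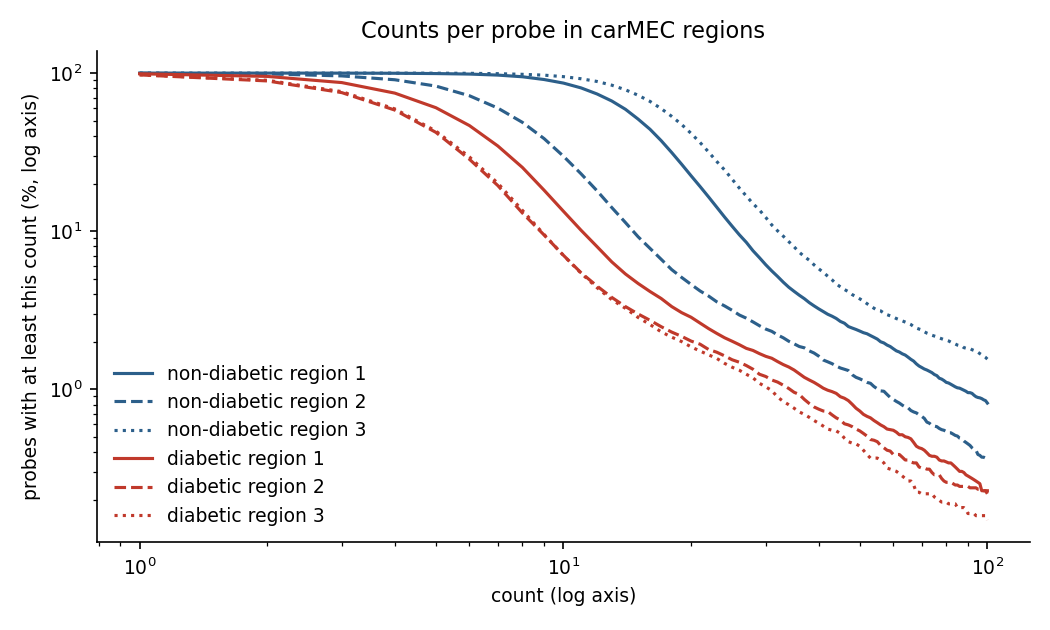
Percent of the probes (vertical log axis) with at least a given count (horizontal log axis) in each of the 6 carMEC regions, non-diabetic in blue and diabetic in red. The diabetic curves lie to the left of the non-diabetic ones: 7.01% to 13.4% of probes reached 10 counts in diabetic regions and 29.8% to 94.9% in non-diabetic regions.

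The most abundant probes took shares that overlapped between the conditions. The 10 most counted probes held 9.52% ± 1.29 of the counts in non-diabetic regions and 10.5% ± 0.617 in diabetic regions (SD, n = 3 each; two-sided exact permutation test, p = 0.2). The 100 most counted held 16.2% ± 1.80 and 17.6% ± 1.65 (SD, n = 3 each; exact permutation p = 0.5). Over the 526 probes above the bulk, Spearman correlations were 0.912 to 0.926 between non-diabetic regions, 0.810 to 0.856 between diabetic regions and 0.785 to 0.867 across the conditions. Pairs share regions and the shallower regions carry more counting error, so these ranges are descriptive. Over all probes thinned to equal totals, the correlations lay between 0.299 and 0.331 for every kind of pair.

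Diabetes changed a small set of probes in carMECs. By the quasi-likelihood test of edgeR, with a Benjamini-Hochberg threshold of 0.05, 30 of 3247 probes tested were called (0.924%), of which 11 were higher (0.339%) and 19 lower (0.585%) in diabetes. The p-values and SEs of this test rest largely on a spread shared across probes, and for the leading probes little on the spread of the single probe. Log2 fold changes had a median of 1.20 in the higher set (0.80 to 2.36) and of -1.14 in the lower set (-1.86 to -0.74), beside -0.11 over all probes tested. Counts were scaled so that the 75th percentile of each region equals 10.4. On that scale the higher probes had a median level of 121 in diabetic and 39.3 in non-diabetic regions, and the lower probes of 18.5 and 38.9. The sets thus had like levels in non-diabetic regions and parted in the diabetic ones, which is what chose them.

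The scaled counts of the conditions did not overlap for 9 of the 11 higher and 18 of the 19 lower probes. Over all probes tested, 13.8% did not overlap, with 4.19% higher and 9.64% lower in every diabetic region. The called probes were also concentrated above the bulk, with 7 higher and 8 lower probes there in all 6 regions, or 2.85% of the probes of that kind against 0.551% of the others. The median SE was 0.363 at mean scaled counts of up to 15 and 0.193 above 300. The test is thus more sensitive at higher levels, and these shares do not compare probes at equal precision. Of the 19 lower probes, 10 had fewer than 10 counts in at least 1 region, as did 3 of the 11 higher probes. A lower probe is low by selection in the shallower diabetic regions, so these 2 counts are not a comparison of the sets.

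**Figure D2:**
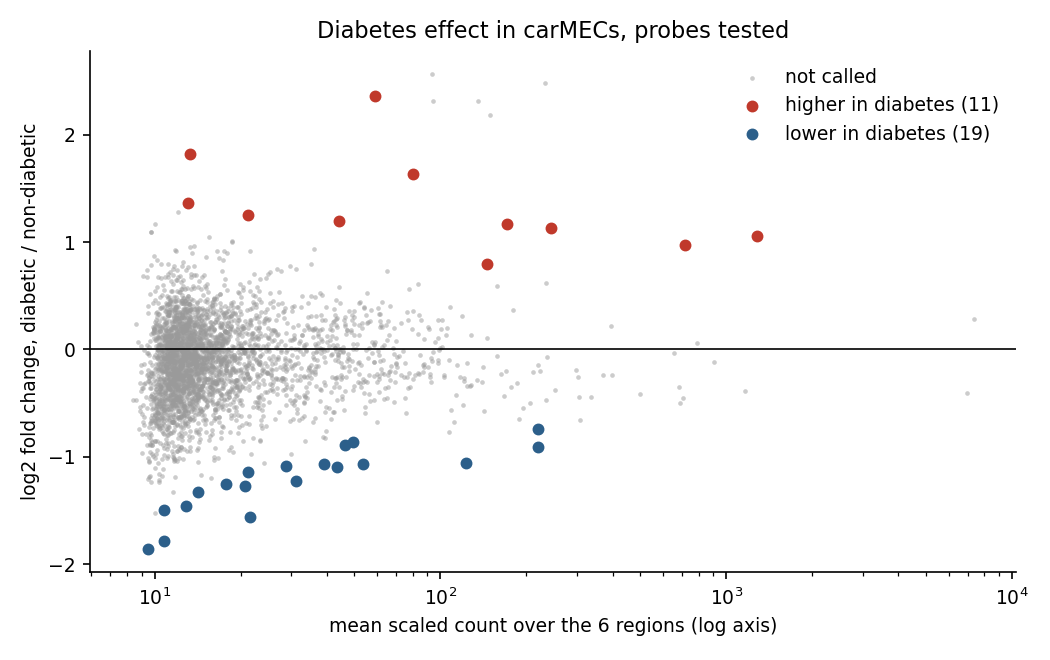
Log2 fold change between diabetic and non-diabetic carMECs (vertical axis) against the mean scaled count over the 6 regions (horizontal log axis) for the 3247 probes tested. The 11 higher probes (red) reach further to the right than the 19 lower probes (blue), and 5 grey probes with log2 fold changes between 2.19 and 2.56 were not called.

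How the counts were scaled changed which direction held more probes. The 75th percentile gave 11 higher and 19 lower probes, whereas TMM factors gave 26 (0.885%) and 5 (0.17%). DESeq2's size factors in the same test gave 29 (1.04%) and 5 (0.179%), and scaling to total counts gave 17 (0.562%) and 6 (0.198%). An interpolated 75th percentile, which avoids the steps of a whole-number percentile between 6 and 23 and was chosen after seeing the data, gave 8 (0.253%) and 9 (0.285%). Over the probes tested, the median log2 fold change went from -0.11 to 0.10 with TMM, 0.13 with DESeq2's factors, 0.06 with total counts and -0.05 with interpolation. Relative to the mean count of a probe, the 75th percentile was 0.979, 0.955 and 0.891 in non-diabetic and 1.05, 1.01 and 1.05 in diabetic regions, so dividing by the 75th percentile lowered diabetic levels relative to dividing by the total. DESeq2's own test called 8 probes higher (0.246%) and 2 lower (0.0616%), and the methods' t-test, unadjusted and with a fold change over 1.5, called 142 (0.703%) and 1157 (5.73%) of 20185.

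A smaller set of probes passed under each scale. The 75th percentile, TMM, DESeq2 factors and total counts together called 49 probes, 30 higher and 19 lower. Of the 11 higher probes 7 were called under each of these 4 scalings, at log2 fold changes of 0.80 to 2.36. Of the 19 lower probes 5 were, at -1.23 to -0.91, while 13 lower probes were called under a single scaling. All 12 of these probes had groups that did not overlap, beside 13.8% of all probes tested. Above the bulk in all 6 regions were 8 of the 12, beside 526 of the 3247 tested. Calls on these same regions chose the 12, so both counts are in part built in. Most lower calls therefore rested on the choice of scale.

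Single regions also mattered. The 30 calls became 6 without diabetic region 1, 15 without diabetic region 2, 14 without diabetic region 3 and 12 without non-diabetic region 2. Of the 11 higher probes 3 were called whichever region was left out, and 0 of the 19 lower probes were. With diabetic region 1 as the sole diabetic region, 5 probes were called, all higher, on the assumption that the lone region varies as the others do.

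**Figure D3:**
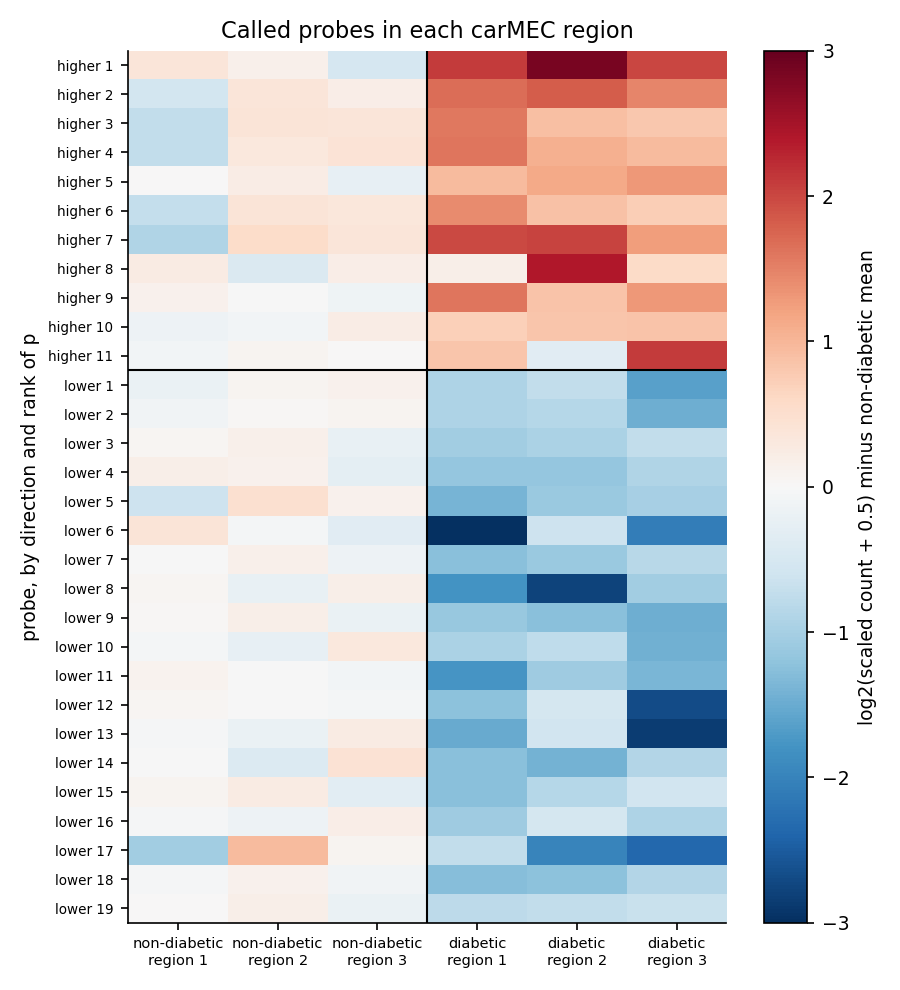
Level of each of the 30 called probes in each of the 6 carMEC regions, as log2(scaled count + 0.5) minus the mean of the 3 non-diabetic regions (color scale from -3 to 3), with the 11 higher probes above the line and the 19 lower probes below it. In higher probes 8 and 11 and lower probe 17 the diabetic regions overlap the non-diabetic ones, and in the other 27 they do not.

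RTS0073724 had the smallest p-value of the comparison. It was counted 44, 20 and 29 times in non-diabetic regions 1 to 3 and 63, 79 and 44 times in diabetic regions 1 to 3, although the latter were the shallower. Its scaled counts were 24.1, 20.8 and 13.1 against 81.8, 136.8 and 76.2. Every diabetic region exceeded every non-diabetic region, with means of 98.3 ± 33.5 and 19.3 ± 5.63 (SD, n = 3 each). The log2 fold change was 2.36 (SE 0.24; edgeR adjusted p = 1.3e-19). It was 2.06 to 2.60 when each region was left out in turn, and was called each time.

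RTS0081549 was the second higher probe. It had scaled counts of 25.7, 48.8 and 43.4 in non-diabetic and 122.1, 135.1 and 105.6 in diabetic regions, from 47 to 96 and 61 to 94 counts. The diabetic regions lay close together and well above the others, with means of 121 ± 14.8 and 39.3 ± 12.1 (SD, n = 3 each). The log2 fold change was 1.64 (SE 0.23; edgeR adjusted p = 7.6e-10), and 1.40 to 1.80 with each region left out, again with every call kept.

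RTS0064170 led the lower probes. Its scaled counts were 143.8, 175.6 and 180.3 in non-diabetic and 87.0, 98.7 and 53.7 in diabetic regions, from 169 to 399 and 31 to 67 counts. Diabetic region 3 was the lowest, and no diabetic region reached the non-diabetic range (79.8 ± 23.4 against 167 ± 19.8, SD, n = 3 each). The log2 fold change was -1.06 (SE 0.22; edgeR adjusted p = 0.00096). The call was lost without diabetic region 1 (adjusted p = 0.081) and without diabetic region 3 (adjusted p = 0.24), where the log2 fold change was -1.13 and -0.84.

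RTS0073356 followed, with scaled counts of 67.3, 73.8 and 76.8 in non-diabetic and 37.7, 39.8 and 26.0 in diabetic regions. The non-diabetic regions differed little from each other, at 72.6 ± 4.87, and the diabetic regions lay at 34.5 ± 7.45 (SD, n = 3 each), from 15 to 29 counts. The log2 fold change was -1.06 (SE 0.24; edgeR adjusted p = 0.0039). This call too was lost without diabetic region 1 or 3 (adjusted p = 0.14 and 0.25), and DESeq2 gave an adjusted p of 0.11.

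**Figure D4:**
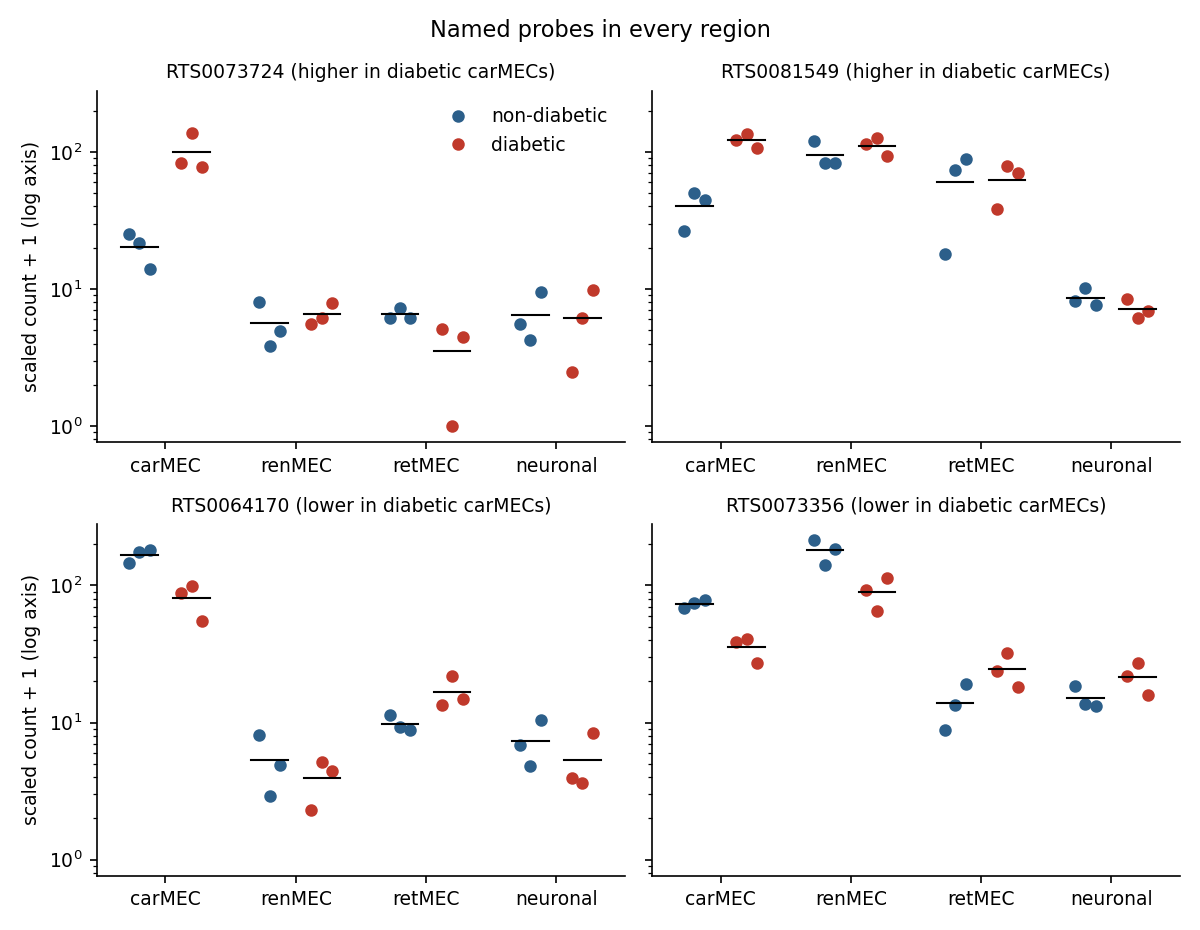
Scaled count plus 1 (log axis) of the 4 named probes in each of the 24 regions, by cell type and condition, with each region as a point and the mean of 3 regions as a line. Outside carMECs the group means were at most 5.56 for RTS0073724 and 15.7 for RTS0064170, while RTS0081549 and RTS0073356 reached 110 and 179 in renMECs.

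The named probes differed in where else they were found. RTS0073724 had mean scaled counts of 2.54 to 5.56 in the 6 groups of other cell types, below the 75th percentile of 10.4, and was counted 0 to 20 times per region. RTS0064170 was likewise low outside the heart, at means of 2.97 to 15.7. RTS0081549 was as high in renMECs, at 94.4 and 110 in non-diabetic and diabetic regions, as in diabetic carMECs, and stood at 59.4 and 61.5 in retMECs and 7.65 and 6.18 in neuronal cells. The levels of this probe in the heart thus reached those of the kidney only in the diabetic regions.

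RTS0073356 was at 179 ± 37.1 in non-diabetic and 89.0 ± 23.6 in diabetic renMECs (SD, n = 3 each). Its log2 fold change there was -1.01 (SE 0.33; edgeR adjusted p = 0.073 in the model of all 24 regions), close to that in the heart. In retMECs it was 12.8 and 23.8, and in neuronal cells 14.2 and 20.5. For none of the 4 named probes was a difference in diabetes effect called between carMECs and another cell type (edgeR interaction contrasts, adjusted p = 0.10 to 1.00). Their changes were thus not shown to be particular to the heart, nor shown to be shared. The smallest of these p-values belonged to RTS0073724 against renMECs, with a difference of 2.11 (SE 0.51).

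A set of 3 higher probes moved together. They were picked after their values were seen, as the higher probes whose ratios to one another varied least, with an SD of the log2 ratio of 0.065 to 0.116 over the 6 regions. The highest of them had scaled counts of 469, 1017 and 1002 in non-diabetic and 2356, 1470 and 1363 in diabetic regions. Non-diabetic region 1 was the lowest and diabetic region 1 the highest of the 6, and the spread within each condition was wide beside the difference. The log2 fold changes of the 3 were 1.06, 0.97 and 1.17 (SE 0.19, 0.19 and 0.21).

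Together these 3 probes took 0.376%, 0.791% and 0.730% of the counts of non-diabetic and 1.96%, 1.22% and 1.16% of diabetic regions, most of what the 11 higher probes took (0.80% ± 0.23 and 1.88% ± 0.41, SD, n = 3 each). The second probe was counted at 0.524 to 0.592 times the first in carMECs and at 0.571 to 0.623 times in renMECs, and the third at 0.123 to 0.143 and 0.115 to 0.203 times. The ratio of the second to the first thus overlapped only in part between heart and kidney, and its range lay lower in the heart. The ratio of the third to the first ran beyond the heart's range on both sides, furthest in diabetic renMEC regions 2 and 3. In renMECs the first probe was at means of 1165 in non-diabetic and 1080 in diabetic regions, and in neuronal cells at 10.6 and 7.17. With total counts as the scale the log2 fold changes were 1.22, 1.13 and 1.33, no smaller than before, but the SEs were 0.40, 0.31 and 0.23. The first and second were then not called (edgeR adjusted p = 0.53 and 0.30), whereas the third was (0.0029).

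The largest fold changes of the comparison were mostly not called. Of 6 probes with a log2 fold change above 2, 5 did not pass, at 2.19 to 2.56 with SEs of 1.52 to 1.83 (edgeR adjusted p = 0.78 to 0.83). In diabetic region 2 these 5 probes had scaled counts of 395 to 1020, but in diabetic region 3 of 8.66 to 17.3. Their sum was 486, 151 and 38.9 in non-diabetic regions 1 to 3 and 448, 3034 and 67.5 in diabetic regions 1 to 3. Within each condition the regions thus differed more than the conditions did.

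The 5 probes rose and fell together across regions, with an SD of the log2 ratio between 0.21 and 0.58 for their pairs, and took 1.46% of all counts in diabetic region 2. That region also had the lowest share of aligned reads, 79.4%, against 96.1% to 96.7% in the other 5. The part of this in the result was not tested. Without diabetic region 2 the log2 ratio of their mean sums was 0.20, beside 2.39 with it, and it was 1.44 when non-diabetic region 1, the highest of its group, was left out as well. Single regions of other cell types were also high, with a sum of 432 in non-diabetic renMEC region 2 and of 435 in non-diabetic neuronal region 3, where the other regions of those groups were at 39.0 to 110.

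The 30 carMEC probes were then followed in the other cell types, with 1 edgeR model of all 24 regions, in which each of the 30 was among 11299 probes tested. In this model the carMEC comparison itself called 1 probe, RTS0073724 (0.00885%), and 0 of the 19 lower probes, so calls in other cell types are not to be set against the 30. All 11 higher probes were at their highest among diabetic groups in carMECs, while among non-diabetic groups carMECs were highest for 3 of the 11. The carMEC values of both conditions chose these probes, so both counts are in part built in. The shares over all probes tested were not computed. In renMECs 5 of the 11 had a log2 fold change below 0 (median 0.22), in neuronal cells 6 (median -0.32) and in retMECs 7 (median -0.22). The higher probes of the heart thus showed no shared direction in the other cell types.

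Most of the 19 lower probes did share one with kidney and retinal neurons. In renMECs 16 of the 19 had a log2 fold change below 0, with a median of -0.66 (-1.16 to 0.94), beside 53.8% of all probes tested. In neuronal cells it was 16 of 19 with a median of -0.56, beside 59.5%. At an unadjusted p under 0.05, 9 of the 19 were lower in renMECs (9% of all probes) and 9 in neuronal cells (4.58%), and after adjustment 1 in renMECs (2.39% of all probes) and 0 in neuronal cells (0.00885%) by edgeR. The organs came from the same 6 mice, so these effects are not independent of those in the heart. Nor are the 19 probes independent of each other. Several kept steady ratios to one another over the 6 carMEC regions, with an SD of the log2 ratio of 0.043 to 0.131 in the steadiest pairs. Thus 16 of 19 is not a count of separate pieces of evidence. Only 5 of the 19 were called in carMECs under all 4 scalings. Their direction in the other cell types was not compared between scalings.

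In retMECs most of the same 19 probes ran the other way, and the same limits on counting them apply. A log2 fold change below 0 was found for 2 of the 19, beside 56.2% of all probes, and the median was 0.65 (-1.30 to 2.22). At an unadjusted p under 0.05, 8 were higher in retMECs (4.19% of all probes), with 0 called by edgeR after adjustment (0.0443%). These 8 had log2 fold changes of 1.32 to 2.22 in retMECs and of -1.56 to -0.74 in carMECs, and 7 of the 8 were below 0 in renMECs and in neuronal cells alike. The retMEC regions were shallow, with 75th percentiles of 2 to 5 counts in diabetes. Between 39.9% and 61.0% of their reads aligned, beside 79.4% to 96.7% in the other regions. Per the file headers they lay on another plate than the other 18 regions, which include the retinal neurons. For retMECs, cell type and plate therefore cannot be told apart, and the part of depth and alignment was not tested.

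**Figure D5:**
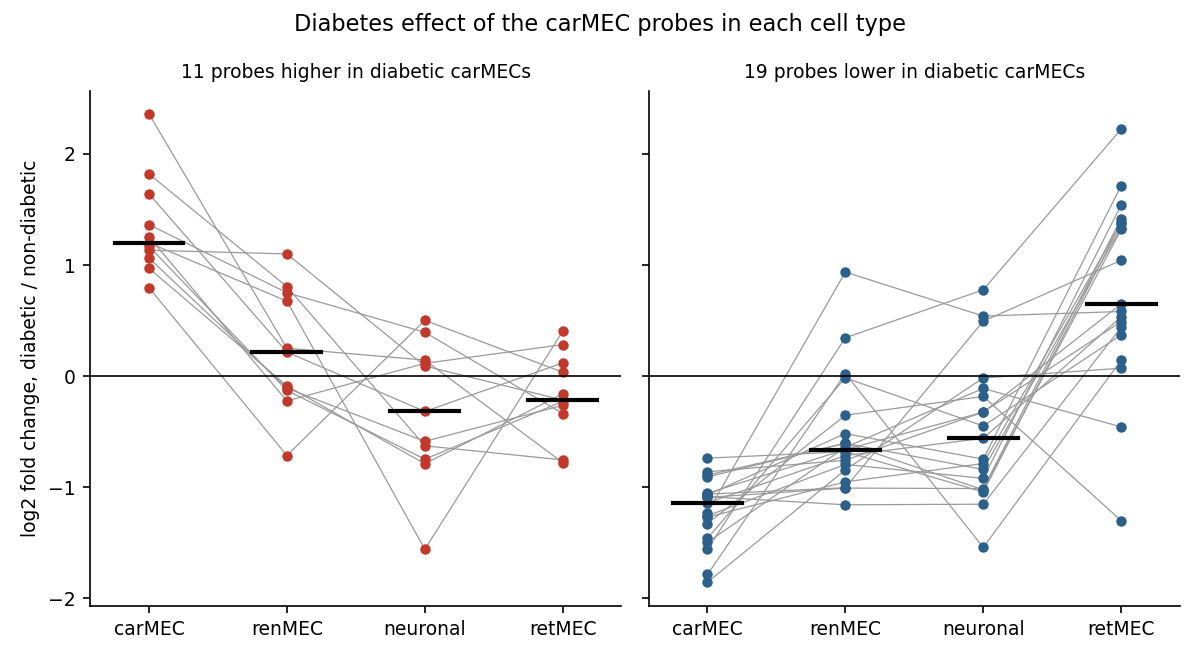
Log2 fold change between diabetic and non-diabetic regions (vertical axis) of the 11 higher (left) and 19 lower (right) carMEC probes in each cell type, with 1 point per probe, lines joining a probe and black bars at the median. The carMEC values chose the probes, and the lower probes have medians of -0.66 in renMECs, -0.56 in neuronal cells and 0.65 in retMECs.

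The diabetes effect itself was compared between carMECs and each other cell type by interaction contrasts. Against renMECs it differed for 6 of 11299 probes (0.0531%), all with a positive signed difference, carMECs minus renMECs, and a larger change in renMECs. Their log2 fold changes were -3.54 to -1.77 in renMECs and -0.42 to 0.76 in carMECs, and 0 of the 6 were among the 30. This count was 14 with TMM factors and between 2 and 17 when single regions were left out. Against retMECs it differed for 12 probes (0.106%), all lower in diabetic carMECs and higher in diabetic retMECs, at -1.29 to -0.35 in carMECs and 1.38 to 2.90 in retMECs, and 4 of the 12 were among the 19 lower probes. The 12 became 1 with TMM factors, 0 without diabetic retMEC region 1 (edgeR, with 799 higher and 338 lower at p under 0.05 unadjusted), 1 without non-diabetic carMEC region 1 or 2 or diabetic carMEC region 1, and 34 when non-diabetic retMEC region 3 was left out. Against neuronal cells it differed for 1 probe (0.00885%), at -3.80 in carMECs and 0.60 in neuronal cells, which was not among the 30. It was called neither with TMM factors nor without any 1 diabetic carMEC region. Regions of 1 mouse can enter both sides of these contrasts, which the p-values leave out of account.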

How the data were processed

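Counts per probe were deposited by the authors for each region, not scaled, with 1 count per unique molecular identifier. Per the file headers they were made with GeoMx NGS Pipeline 2.3.4. A probe not listed was given a count of 0. The quality control, gene exclusion and 75th percentile scaling of the study's methods had not been applied to these counts. Probes, comparisons and lists were chosen with earlier results of these data known. Marker and pathway lists had been drawn up but need gene symbols and were not tested.

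The main test was edgeR 4.0.16 (R 4.3.3), quasi-likelihood with robust fit, on the 6 carMEC regions, with factors at the 75th percentile, filterByExpr (minimum count 10) and an adjusted p under 0.05. Interactions used 1 model of 24 regions. The SEs given are the absolute log2 fold change divided by the square root of the test's F statistic, not a separate estimate. Named were the 2 higher and 2 lower called probes with the smallest p. Values per region were compared by two-sided exact permutation. Fits were tested on simulated data. Alternatives were TMM, DESeq2 1.42.0 and its size factors, total and thinned counts, other filters, a replicate block, each region left out and the methods' t-test (fold over 1.5). An interpolated percentile was added after seeing the data.

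Total counts of 115269 to 521366 per carMEC region limit precision for probes with few counts. Within-condition pairs of regions differed by a chi-square per degree of freedom of 1.06 to 1.32, and the common coefficient of variation between regions was 16.2%. Deviations of same-numbered diabetic and non-diabetic regions correlated at 0.0087 to 0.0406, and those of differently numbered regions at -0.058 to 0.037. With most probes at low counts these values cannot exclude pairing. No label gives pairs, so the numbers were not taken as such.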

Additional observations from a re-analysis of the deposited data

Results flagged for a closer look

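The effect of diabetes differed between carMECs and another cell type by edgeR's interaction contrasts for 6 probes against renMECs, 12 against retMECs and 1 against neuronal cells. With each region left out in turn these counts ranged from 2 to 17, 0 to 34 and 0 to 2, and with TMM factors they were 14, 1 and 0. At an unadjusted p under 0.05 the contrasts gave 272 higher and 467 lower in carMECs against renMECs, 348 and 488 against retMECs, and 197 and 281 against neuronal cells. The single probe against neuronal cells had a difference of -4.40 (SE 0.90; edgeR adjusted p = 0.033).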

How the results depend on the processing

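From 30 probes changed in carMECs, the count went to 17 with the interpolated 75th percentile, 13 with no count filter, 10 by DESeq2, 5 with diabetic region 1 alone and 1 in the model of all 24 regions, and 6 to 32 with each region left out. The methods' t-test called 1299 probes (142 higher, 1157 lower) and 0 after Benjamini-Hochberg adjustment, while 211 rises and 1310 falls had an unadjusted p under 0.05. Leaving out a diabetic region also widened the test to between 6127 and 7254 probes. Same-numbered regions were not taken as pairs, and not every region correlated best with its own number. With the replicate number as a block 20 probes were called (9 higher, 11 lower), all among the 30. The other alternatives kept the count between 21 and 34.

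Interactions with renMECs numbered 14 by TMM, 1 with at least 10 counts in every region and 2 to 17 with each region left out. Those with retMECs numbered 1 by TMM and 0 to 34 with each region left out: 0 without diabetic retMEC region 1, 1 without non-diabetic carMEC region 1 or 2 or diabetic carMEC region 1, 2 and 4 without diabetic carMEC regions 2 and 3, and 7 and 34 when non-diabetic retMEC region 1 or 3 was left out. Those with neuronal cells numbered 2 by total counts, 0 by TMM (edgeR; 260 above and 174 below 0 had an unadjusted p under 0.05), 0 with at least 10 counts in every region (3 and 3) and 0 to 2 with each region left out. Against renMECs the count was 2 without non-diabetic carMEC region 1 or diabetic carMEC region 2, 3 without diabetic carMEC region 1 and 17 without diabetic renMEC region 2. The causes were not tested.

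With each region left out, the diabetic minus non-diabetic difference ranged from -327077 to -172030 for total counts, -14.3 to -7.83 for the 75th percentile, -489 to -327 for probes detected, and 0.312 to 1.60 and 0.427 to 2.24 percentage points for the shares of the 10 and 100 most counted probes. RTS0073724 and RTS0081549 lost their call only with the adjusted t-test and, for RTS0081549, in the model of 24 regions (adjusted p = 0.084). RTS0064170 and RTS0073356 also lost theirs in that model (0.50 and 0.76) and with diabetic region 1 alone.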
